A study of Mus musculus with 24 samples.

Results

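Aurora kinases and the chromosomal passenger complex were followed as 8 transcripts in single mouse oocytes: Aurka, Aurkb and Aurkc, the complex subunits Incenp, Birc5 (survivin) and Cdca8 (borealin), and the spindle proteins Tpx2 and Tacc3. Members were taken by gene symbol, and all 8 were found among the 25965 entries of the expression table. All 8 were also among the 10987 genes tested, whose oocyte mean reached 1 RPM (RPM, a gene's reads for every 1000000 that the library holds). Birc5 helped to define the set through its own lower level in transgenic oocytes of all 4 sequencing lanes, so its genotype values are given as a description without a test.

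Aurora kinases phosphorylate proteins of the spindle and the chromosomes when a cell divides. Aurora A works at spindle poles, where TPX2 binds and activates it and where it phosphorylates TACC3, a protein that stabilises spindle microtubules together with clathrin and the microtubule polymerase CKAP5. Aurora B is the enzyme of the chromosomal passenger complex, in which INCENP is the scaffold and survivin and borealin bring the complex to centromeres. Aurora C is a close relative of Aurora B that is made mainly in germ cells and can take its place in the complex during meiosis. An ovulated mouse egg is arrested at metaphase of the second meiotic division with its spindle assembled, makes almost no new RNA, and relies on stored maternal messages.

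Adult females carrying the transgene (genotype Thy1.2-AMHTg/0, called AMH-overexpressing by the labels) were compared with wild-type females (Thy1.2-AMH0/0). Thy1.2 is a promoter usually used to drive transgenes in neurons; the sources used here name neither strain nor exact age. Oocytes of both genotypes were naturally ovulated, taken from the oviduct and freed of cumulus cells and zona. Each genotype had 4 females, each sequencing lane held 1 female of each genotype, and 10 transgenic and 11 wild-type oocytes were analysed beside 1 kit control RNA sequenced in lane 4. The female was the replicate, with n = 4 for either genotype. Oocyte libraries held 20400000 to 33300000 reads, so that 3 reads of a gene came to 0.0900 to 0.147 RPM. All 14 oocyte markers were present in every oocyte, with medians from 36.7 RPM for Ddx4 to 10548 RPM for Bcl2l10. Of 32 cumulus and granulosa markers 6 reached 1 RPM in each of the 21 oocytes (Serpine2, Cyp19a1, Nr5a2, Kitl, Runx2 and Col4a1), and the summed level of the 26 others was 0.0972 to 3.42 RPM in transgenic and 0.342 to 41.8 RPM in wild-type oocytes. RPM is a share of a library, so a change in the total RNA of an oocyte could not be seen.

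The annotated 3′ ends of the members' messages were searched for short sequence elements. Whether the kinases differ from their partners there was not tested. Maternal messages can be translated in maturing oocytes after their tails are lengthened at a cytoplasmic polyadenylation element (CPE), searched here as TTTTAT or TTTTAAT on the sense strand, near the poly(A) signal AATAAA or ATTAAA. In the last 150 bases of the annotated 3′ untranslated region (146 for Aurkc, whose region is shorter), CPE letters were present in all 3 kinase messages and in 0 of the 5 partner messages, against 23.5% of 18276 mouse genes with a region at least that long. The 30 bases that end with the last poly(A) signal are shown because they set the kinases beside their partners; for Aurka, where no such signal was found in the window, the 30 bases around the CPE letters are shown. Capitals mark the CPE letters and the poly(A) signal. Sequences are the sense strand of GENCODE M21 principal transcripts (build GRCm38), and a match of letters is a description and not a tested site.
Aurka: ttaaaggctattTTTTATgttggagttctg
Aurkb: aaattatgaagaacaacaTTTTATAATAAA
Aurkc: tttctcTTTTATgaagtgatgttaATTAAA
Incenp: tttctagggtttgtgaggtagtttAATAAA
Birc5: agttttcctaccacggggtaacggAATAAA
Cdca8: gtctactgaaagcttgctgttttcAATAAA
Tpx2: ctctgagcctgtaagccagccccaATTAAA
Tacc3: gtgtgcagagctgggtagccctgtAATAAA
In Aurkb the CPE letters directly adjoin the poly(A) signal, with 0 bases between them, and in Aurkc 12 bases lie between. The signal printed for Incenp ends 60 bases before the end of the transcript. Regions longer than the window, such as the 1630 bases of Tpx2, were searched at their end only.

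Aurora A and Aurora C messages were plentiful in the ovulated egg, and Aurora B messages were few beside them. Aurka (ENSMUSG00000027496, chromosome 2, 172356190 to 172370535, minus strand, GRCm38) ranged from 175 to 316 RPM over the 21 oocytes with a median of 245 RPM. Aurkc (ENSMUSG00000070837, chromosome 7, 6995443 to 7002945, plus strand) ranged from 165 to 342 RPM with a median of 230.5 RPM. Aurkb (ENSMUSG00000020897, chromosome 11, 69045647 to 69051664, plus strand) ranged from 1.03 to 53.0 RPM with a median of 6.43 RPM. Per kilobase of the principal transcript, the mean level was 207 ± 34.1 RPM per kb for Aurkc, 128 ± 16.6 RPM per kb for Aurka and 5.89 ± 6.74 RPM per kb for Aurkb (SD over 21 oocytes). By these means Aurkc made up 60.7%, Aurka 37.6% and Aurkb 1.72% of the 3 kinases' summed level per kb. With the length of all coding exons in place of the principal transcript the shares were 54.3%, 43.6% and 2.03%. By that length the Aurkb mean stood above that of 52.5% of the 10865 genes tested that had a length. The Aurka mean stood above 95.3% and the Aurkc mean above 96.4% of them.

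The Aurkc value carries an uncertainty of counting that the other members mostly lack. Of the 1105 stretches of 50 bases in its principal transcript, 74.2% also occur in transcripts of 10 other annotated genes, the most (677) in Gm12463, and none of these 10 has an entry in the table. The sources used here do not say how reads with several matches were counted. The share was 8.42% for Tacc3, all of it in the neighbouring Tmem129 with a mean of 0.300 RPM, 2.34% for Birc5 and 0.185% for Tpx2. It was 0% for Aurka, Aurkb, Incenp and Cdca8, so by this measure Aurkb and Aurkc shared no stretch of 50 bases. Cdca8 overlaps another entry of the table, 9930104L06Rik on the opposite strand with a mean of 4.76 RPM.

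Among the subunits of the complex, borealin messages were the most plentiful and Incenp messages the least. Cdca8 (ENSMUSG00000028873, chromosome 4, 124918465 to 124939311, minus strand) stood between 556 and 865 RPM with a median of 703 RPM. Birc5 (ENSMUSG00000017716, chromosome 11, 117849251 to 117855743, plus strand) stood between 101 and 578 RPM with a median of 253 RPM. Incenp (ENSMUSG00000024660, chromosome 19, 9872297 to 9899533, minus strand) stood between 86.3 and 157 RPM with a median of 127 RPM. The partners of Aurora A were also abundant. Tpx2 (ENSMUSG00000027469, chromosome 2, 152847964 to 152895321, plus strand) had a median of 363 RPM (280 to 520 RPM), and Tacc3 (ENSMUSG00000037313, chromosome 5, 33658128 to 33678995, plus strand) a median of 535 RPM (252 to 712 RPM).

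Per kilobase of the principal transcript the order of the mean levels was Cdca8 (431 ± 47.9 RPM per kb, SD over 21 oocytes), Birc5 (286 ± 109), Aurkc (207 ± 34.1), Tacc3 (182 ± 32.8), Aurka (128 ± 16.6), Tpx2 (83.8 ± 15.1), Incenp (37.3 ± 6.46) and Aurkb (5.89 ± 6.74). The ranges over oocytes did not overlap between Tpx2 and Incenp (64.0 to 119 against 26.7 to 48.4 RPM per kb), and they overlapped between each other pair of neighbours in this order. The place of Birc5 depended on its length: the principal transcript has 947 bases and the exons of all coding transcripts 3.40 kb, with which Birc5 stood at 79.7 ± 30.3 RPM per kb and fell from place 2 to place 6.

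**Figure D1:**
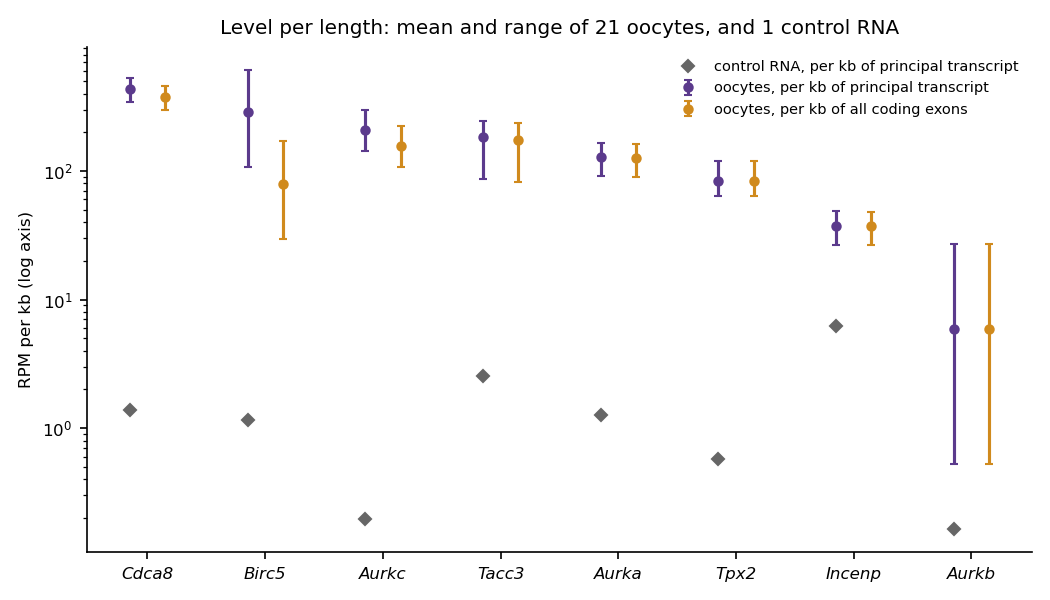
Level per kilobase (RPM per kb, log axis) of the 8 transcripts: points are means and bars the range over 21 oocytes, with 2 measures of length, and grey diamonds are the single control RNA. Cdca8 is at the top and Aurkb at the bottom with either length, while Birc5 moves from 286 to 79.7 RPM per kb.

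The control RNA of the kit, of unstated origin, held little of 7 of the 8 transcripts. Aurkc had 5 reads there (0.227 RPM, exact Poisson 95% interval 0.0737 to 0.529 RPM, which covers counting error only), and the mean of the oocytes was 1054 times as high. The same ratio was 309 for Cdca8, 249 for Birc5, 146 for Tpx2, 102 for Aurka, 71.9 for Tacc3 and 36.1 for Aurkb, which had 7 reads in the control. Incenp was the exception at 20.3 RPM in the control, and the ratio was 5.95. With 1 control library these ratios have no replicate check.

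**Figure D2:**
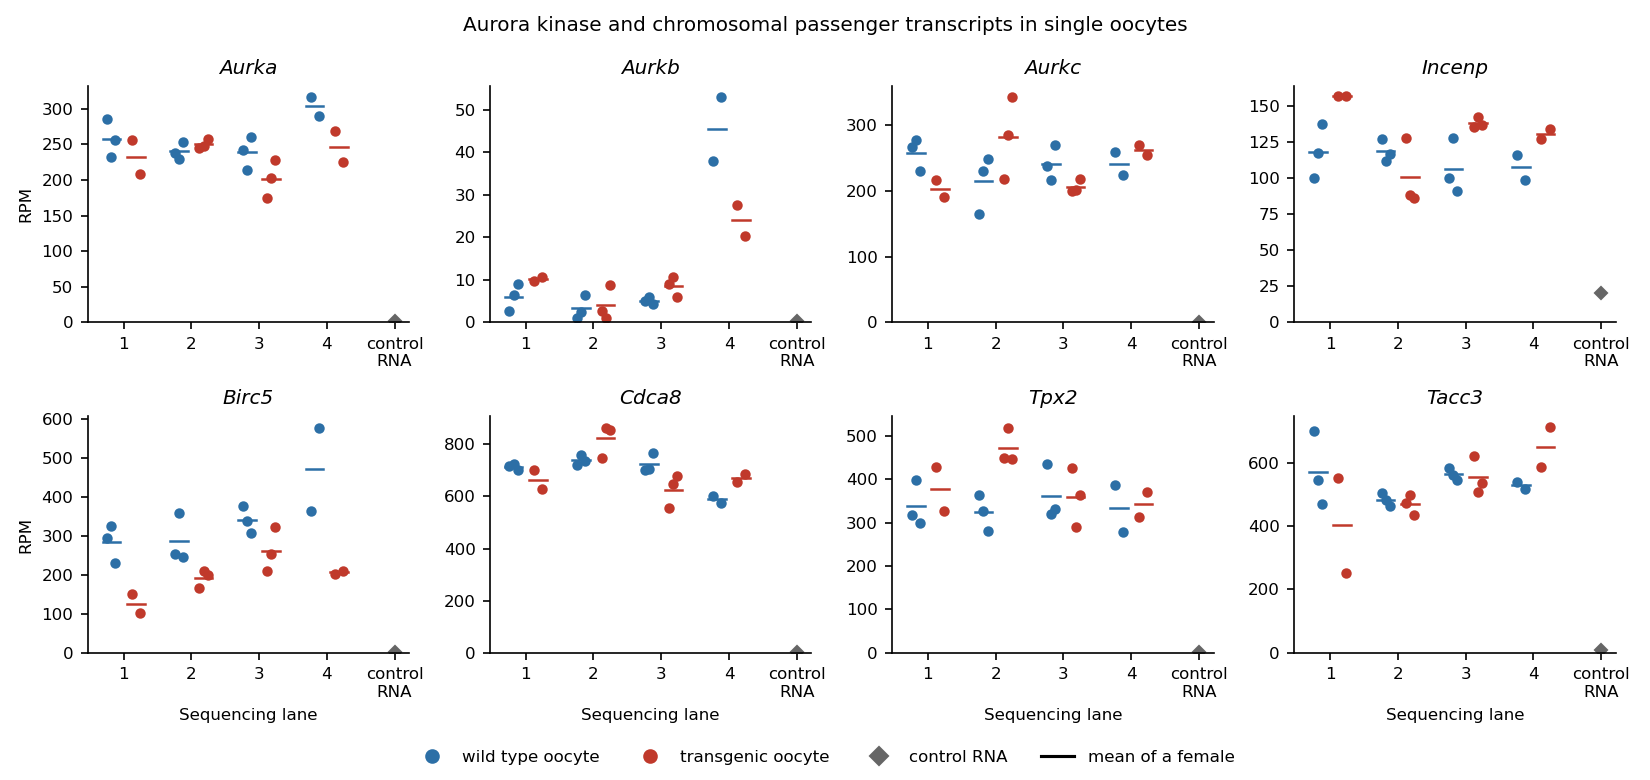
RPM of each transcript in every oocyte by sequencing lane (blue, wild type; red, transgenic; short lines, mean of a female) and in the control RNA (grey diamond). Birc5 is lower in the transgenic female of each lane, Aurkb is raised in the 4 oocytes of lane 4, and the other panels show overlapping groups.

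Sister oocytes of 1 female were alike in most of these transcripts. The SD between sisters on the log2(RPM + 1) scale was 0.089 for Cdca8, below that of all but 0.0364% of the genes tested, 0.14 for Aurka, 0.19 for Incenp, 0.21 for Aurkc, 0.23 for Tpx2, 0.27 for Tacc3 and 0.28 for Birc5, against a median of 0.41 over all genes tested. Aurkb had the largest of the 8 at 0.68, above 84.9% of the genes tested. The comparison was not adjusted for abundance. For Aurkb 80.7% and for Cdca8 80.0% of the variation over oocytes lay between females, against a median of 46.0% over all genes tested. The share was 83.1% for Birc5, which includes the genotype difference it was chosen for, so nothing is read from it.

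The 8 transcripts did not vary as 1 block from oocyte to oocyte. Pearson's r over the 21 oocytes, which share libraries, lanes and females, ran from -0.679 to 0.504 over the 28 pairs with a median of 0.105. The lowest was between Aurkc and Incenp and the highest between Aurkc and Cdca8, and after the mean of each female was taken away these 2 values were -0.678 and 0.601. Aurkb and Cdca8 had an r of -0.672 over oocytes, which was -0.116 after the means of females were taken away. Incenp had a negative r with Aurka (-0.474), Birc5 (-0.479) and Cdca8 (-0.502) as well. After the means of females were taken away these values were -0.323, -0.409 and -0.422. Over all oocytes the pairs with Birc5 include the genotype difference that Birc5 was chosen for, so nothing is read from those pairs. These correlations are descriptions of 21 oocytes and not of independent samples.

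The comparison of genotypes asked which of these messages differ in oocytes of AMH-overexpressing females. No gene of the whole table passed (0 of 10987 genes, 0%, limma with Benjamini-Hochberg adjustment at 0.05), and on the log2(RPM + 1) scale 4 members had a higher and 4 a lower mean in the transgenic females. The 7 members other than Birc5 had lanes of both signs, and 18.3% of all genes tested had the same sign in all 4 lanes. Birc5 had the same sign in all 4 lanes, but it was chosen for this, so nothing is read from its sign. In the same fit 305 genes (2.78%) were higher and 443 genes (4.03%) lower at an unadjusted p under 0.05. The median log2 difference was -0.014 over all genes tested and 0.0058, the value of Cdca8, over the 7 members other than Birc5.

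Birc5, the member whose difference helped to define the set, was lower in the transgenic female of every lane. In lane 1 it stood at 151 and 101 RPM in the transgenic oocytes and at 294, 326 and 231 RPM in the wild-type oocytes. In lane 2 the values were 165, 209 and 199 against 253, 359 and 246 RPM, in lane 3 210, 253 and 322 against 377, 337 and 307 RPM, and in lane 4 202 and 210 against 363 and 578 RPM. Within lanes 1, 2 and 4 the oocytes of the genotypes did not overlap, and in lane 3 1 transgenic oocyte stood above the lowest wild-type oocyte. In each lane these were sisters from 1 female of either genotype, and the share of all genes with such separation was not counted. The transgenic females averaged 196 ± 55.8 RPM and the wild-type females 345 ± 87.6 RPM (SD, n = 4), a log2 difference of -0.82 ± 0.22 (SE). By lane the log2 difference was -1.18, -0.56, -0.40 and -1.15. A lower value in all 4 lanes was found in 10.3% of all genes tested, and lower female means without overlap in 2.39%. The set was chosen on this contrast, so nothing is read from these shares or from the separation of oocytes within lanes. The SE and the alternatives below describe the chosen value and are no support for it. Without the transgenic female of lane 1, whose 2 oocytes held the lowest values, the difference was -0.62, and it ran from -0.97 to -0.62 over 19 alternatives.

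**Figure D3:**
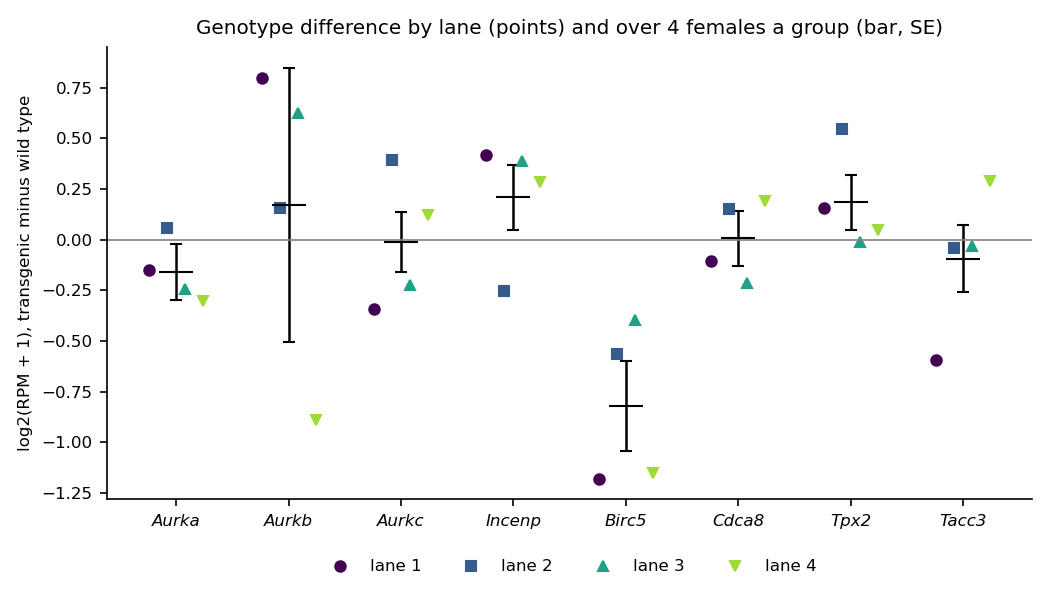
Difference in log2(RPM + 1), transgenic minus wild type, for each transcript: coloured points are the 4 lanes and the black bar the difference over females with its SE. All 4 lanes of Birc5, which was chosen for this, lie below 0, from -1.18 to -0.40. The other 7 transcripts have lanes on both sides of 0.

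Of the complex, Incenp, Cdca8, Aurkb and Aurkc were tested, and none passed. For Incenp the mean was 131 ± 23.3 RPM in the transgenic females and 112 ± 6.65 RPM in the others, and the log2 difference was 0.21, with a 95% interval of -0.14 to 0.55 and a limma adjusted p of 0.7995. Cdca8 stood at 696 ± 86.8 against 692 ± 69.4 RPM, a difference of 0.0058 (-0.29 to 0.30, limma adjusted p = 0.995). Aurkb and Aurkc also had intervals that include 0. For Aurkc the levels were 238 ± 39.8 against 239 ± 18.1 RPM, and the difference was -0.013 (-0.33 to 0.31, limma adjusted p = 0.988). For Aurkb they were 11.8 ± 8.58 against 15.0 ± 20.4 RPM, and the difference was 0.17 (-1.29 to 1.63, limma adjusted p = 0.957). The Aurkb mean in RPM was lower and its mean on the log scale higher in transgenic females, with the wild-type female of lane 4 at 45.5 RPM. Leaving that female out gave a log2 difference of 0.95. Leaving out a wild-type female of lane 1, 2 or 3 gave 0.0093, -0.25 or -0.021, and leaving out a transgenic female of lane 2 or 4 gave 0.60 or -0.25.

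Aurora A and its partners gave no call either. Aurka had 233 ± 22.1 against 260 ± 30.1 RPM in transgenic and wild-type females, and its log2 difference was -0.16 (95% interval -0.46 to 0.14, limma adjusted p = 0.822), with a lower transgenic mean in 3 of 4 lanes. Tpx2 stood at 388 ± 57.7 against 340 ± 16.1 RPM, a difference of 0.18 (-0.11 to 0.48, limma adjusted p = 0.796). Tacc3 stood at 520 ± 107 against 538 ± 40.4 RPM, a difference of -0.094 (-0.45 to 0.26, limma adjusted p = 0.903). Its lowest value, 252 RPM, was in the transgenic oocyte of lane 1 that also had the lowest Birc5, and without that female the Tacc3 difference was 0.047. These intervals do not show that the levels were equal.

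Aurkb was highest in the oocytes of lane 4, in both genotypes. In lane 4 it stood at 27.7 and 20.4 RPM in the transgenic and at 38.0 and 53.0 RPM in the wild-type oocytes. In the 17 oocytes of lanes 1 to 3 it lay between 1.03 and 10.7 RPM with a median of 6.03 RPM. All 4 oocytes of lane 4 were therefore above all others, as were those of 0.583% of all genes tested (64 genes); in 0.191% they were below all others. The oocytes of lane 1 or of lane 2 stood apart from all others in 0% of genes in either direction, and those of lane 3 were above in 0% and below in 0.00910%. Lane 4 held 4 oocytes and lanes 1, 2 and 3 held 5, 6 and 6. Fewer oocytes stand apart more easily, so these shares are not like for like. Aurkb made up 3.56% to 8.37% of the 3 kinases' level per kb of coding exons in lane 4 and 0.166% to 2.30% in the other lanes. The female means on the log2(RPM + 1) scale were 2.41 higher in lane 4 than in the mean of the other lanes.

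A test over the 4 lanes with genotype in the model was added after this pattern was seen. The limma F test gave Aurkb an unadjusted p of 3.5e-05 and an adjusted p of 0.103, so it did not pass over all genes; 2 of 10987 genes passed (0.0182%), Ube2t and Plat, and 11.5% had an unadjusted p under 0.05. The adjusted p of the 7 other members ran from 0.386 for Birc5 to 0.937 for Aurkc. Single females moved Aurkb across the threshold. Its adjusted p, with the transgenic females of lanes 1 to 4 left out in turn, was 0.0166, 0.465, 0.0407 and 0.00149. With the wild-type females of lanes 1 to 4 left out in turn it was 0.0192, 0.260, 0.0666 and 0.461. Each lane held different females, so lane and female cannot be told apart.

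A few partners were also high in lane 4, and they are named here after their values were seen. Ube2c, the ubiquitin-conjugating enzyme of the anaphase-promoting complex, stood at 57.4 to 281 RPM in the oocytes of lane 4 and at 10.4 to 47.7 RPM in the others. Vrk1, a histone kinase, stood at 120.0 to 174 against 69.9 to 119.5 RPM. These 2 of 78 tested partners were above all others in lane 4, and 0 were below, beside 0.583% and 0.191% of all genes tested. Kif2c, a microtubule depolymerase phosphorylated by Aurora B, overlapped, with 52.8 to 125 against 25.8 to 75.0 RPM. Outside the pathway list, Ube2t, an enzyme of DNA crosslink repair, stood at 474.5 to 1558 against 52.4 to 301 RPM, and Plat, tissue plasminogen activator, at 4753 to 8977 against 828 to 4344 RPM. In Aurkb, Ube2c, Ube2t and Kif2c the wild-type oocytes of lane 4 averaged more than the transgenic ones, at 45.5 against 24.1, 246 against 81.2, 1503 against 557 and 107 against 55.6 RPM.

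**Figure D4:**
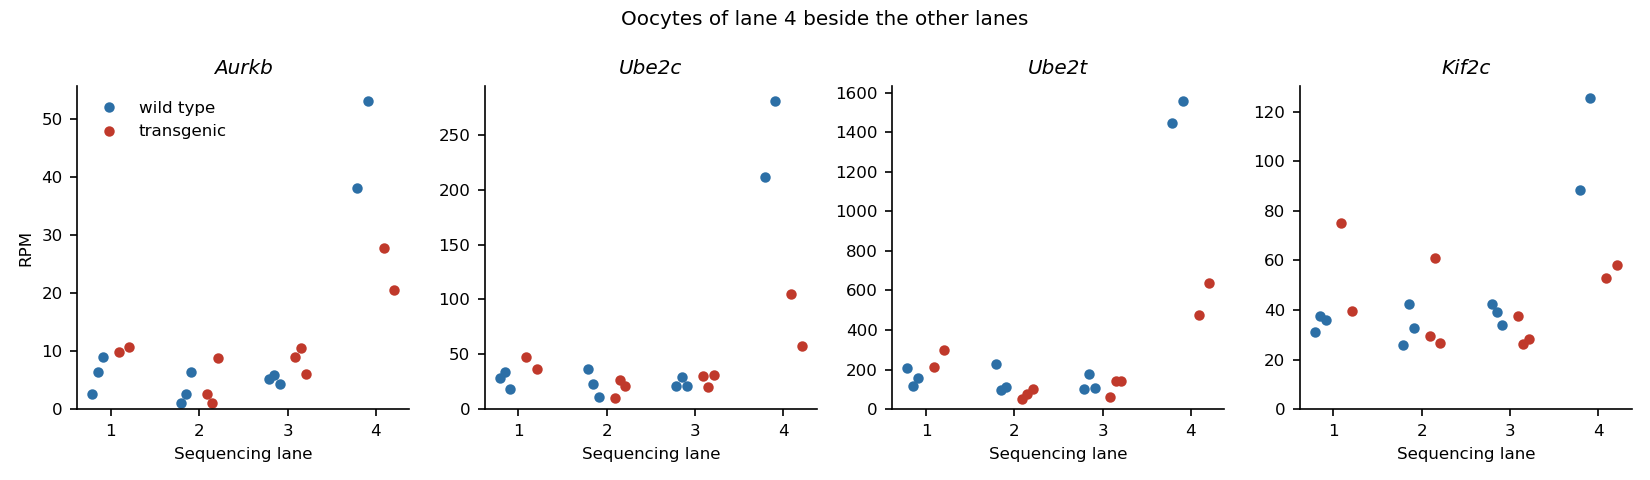
RPM of Aurkb and of 3 other transcripts in every oocyte by sequencing lane (blue, wild type; red, transgenic). The 4 oocytes of lane 4 lie above the 17 others for Aurkb, Ube2c and Ube2t and overlap them for Kif2c.

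Properties of the libraries in lane 4 were set beside this pattern. Lane 4 oocytes had totals of 23700000 to 26700000 reads, within the range of the others, and 93.1% to 93.5% of reads in listed genes. The 14 oocyte markers summed to 45039 to 49556 RPM in lane 4 (median 46532) and to 31121 to 46660 RPM in lanes 1 to 3 (median 40378). The summed level of the 32 cumulus and granulosa markers was 1319 to 1514 RPM in lane 4 and 831 to 1389 RPM in lanes 1 to 3. Most of this sum was Serpine2, at 1220.0 to 1428 RPM in lane 4 and 733 to 1279 RPM in the others. Without the 6 markers present in all oocytes the sum of the remaining 26 was 2.10 to 2.69 RPM in lane 4 and 0.0972 to 41.8 RPM in the others, with 15 of the 26 at 0 in lane 4. The 7 oviduct markers, mostly Cdh1, summed to 117 to 135 RPM in lane 4 and to 54.3 to 271 RPM in the others, and 12 blood and immune markers to 11.8 to 23.3 and 12.4 to 31.1 RPM. The part of these properties in the Aurkb level was not tested.

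Genes that regulate or serve the Aurora kinases were followed through 88 partners listed by role, of which 87 had an entry and 78 were tested. None passed in the genotype comparison (0 higher and 0 lower by limma); 45 (57.7%) had a higher and 33 (42.3%) a lower mean in the transgenic oocytes, beside 47.8% and 52.2% of all genes tested. At an unadjusted p under 0.05 these counts were 4 (5.13%) and 3 (3.85%), beside 2.78% and 4.03% of all genes tested. The counts are small, and whether the shares differ was not tested. Their median log2 difference was 0.025, beside -0.014 over all genes. The named genes below are the 2 of each role with the smallest p, and all their limma adjusted p were 0.724 to 0.890. Choice by p in this fit favours genes with the same sign in every lane, so nothing is read from such agreement.

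Among the tested genes listed under activation of Aurora kinases, whatever their part in it, 5 of 7 were higher. Plk1, a kinase that works with Aurora A at spindle poles, had means of 297 ± 51.0 RPM in the transgenic females and 245 ± 24.4 RPM in the others (log2 difference 0.28), and the centrosomal kinase Nek2 at 5.69 ± 0.54 against 6.74 ± 2.17 RPM (-0.16). Among the genes listed under recruitment of the complex, whichever way they act on it, 8 of 13 were higher. Kif20a, the kinesin that carries the complex to the central spindle, stood at 232 ± 64.8 against 155 ± 22.5 RPM (0.52), and Cdca2, a protein phosphatase 1 targeting subunit on chromosomes, at 169 ± 10.8 against 137 ± 11.1 RPM (0.31). Both were higher in the transgenic female of all 4 lanes, as were 7.97% of all genes tested.

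Of 13 tested substrates 7 were higher. Stmn1, the microtubule destabiliser stathmin, stood at 11.6 ± 1.90 against 16.6 ± 1.62 RPM (-0.49) and was lower in all 4 lanes. The kinetochore protein gene Ndc80 stood at 184 ± 38.5 against 137 ± 12.5 RPM (0.39) and was higher in all 4 lanes. Among 17 spindle partners 10 were higher. The spindle motor Kif11 stood at 16.7 ± 2.19 against 12.5 ± 1.73 RPM (0.40), and Nedd1, which recruits gamma-tubulin, at 398 ± 57.5 against 325 ± 50.6 RPM (0.29), and both were higher in all 4 lanes.

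Of 21 phosphatase and turnover genes 10 were higher and 11 lower. Ppp6r3, a regulatory subunit of protein phosphatase 6, which acts on Aurora A, stood at 67.0 ± 9.08 against 47.0 ± 8.99 RPM (0.52) and was higher in all 4 lanes. Aurkaip1, named for its binding to Aurora A, stood at 5.61 ± 1.14 against 8.46 ± 1.64 RPM (-0.52) and was lower in all 4 lanes. Of 7 tested genes listed with the inhibitor of apoptosis family, to which survivin belongs by its fold, 5 were higher. The list also holds Diablo, an antagonist of the family, and Aifm1, which are not members of the family. Birc3, cellular inhibitor of apoptosis 2, stood at 818 ± 131 against 668 ± 50.6 RPM (0.27), and Birc6 at 48.4 ± 10.8 against 42.4 ± 8.59 RPM (0.17), the latter higher in all 4 lanes.

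**Figure D5:**
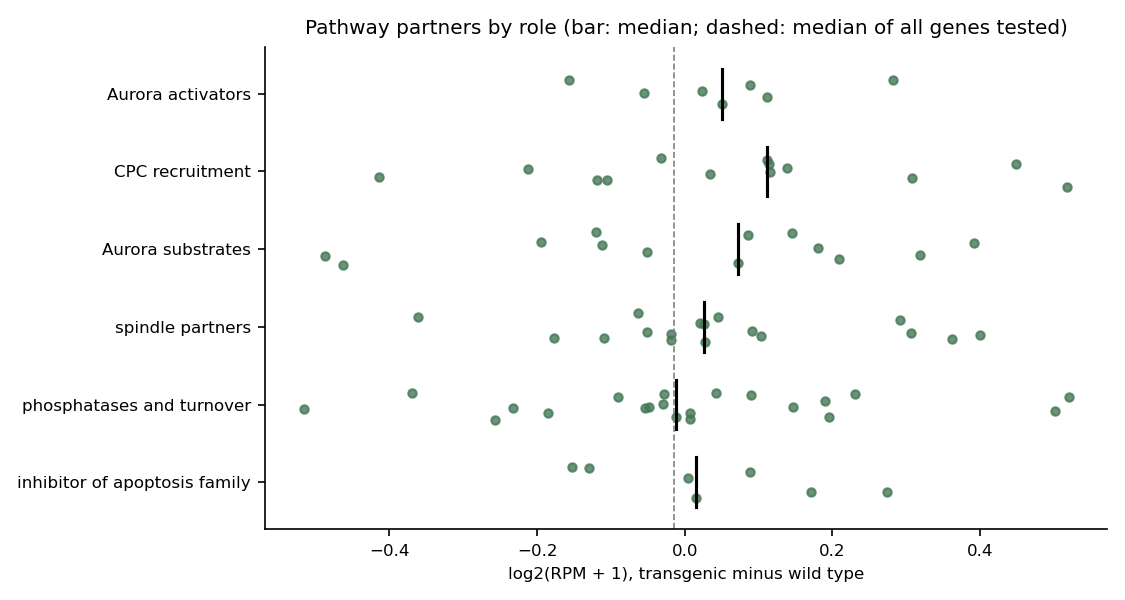
Difference in log2(RPM + 1), transgenic minus wild type, of the 78 tested partners by role (points), with the median of each role (bar) and of all genes tested (dashed). Differences run from -0.52 for Aurkaip1 to 0.52 for Ppp6r3, on both sides of 0 in every role.

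The genes most like each member were taken by Pearson's r of log2(RPM + 1) over the 21 oocytes, as a description with no test. They are the highest of all genes compared, so a high r is partly fixed by this choice. Birc5 had the closest: Tmsb10, a thymosin (r = 0.935), Atp5l, a subunit of ATP synthase (0.931), and Rnasek (0.930), with 0.895, 0.820 and 0.921 over the 11 wild-type oocytes alone. The r over all oocytes includes the genotype difference that Birc5 was chosen for. Levels were low for Atp5l (0.930 to 6.19 RPM) and Tmsb10 (2.61 to 18.9 RPM). Aurkb was closest to Leprot (0.863), Rnf5 (0.849) and Arl8a (0.817). After the mean of each female was taken away these 3 were 0.377, 0.212 and 0.292, against 0.792, 0.753 and 0.797 for the 3 genes closest to Birc5. Aurka was closest to Shmt1 (0.803), Cenpa, the centromeric histone H3 variant (0.798), and the oocyte homeobox gene Obox2 (0.721). Aurkc was closest to Tm2d3 (0.779), Srsf7 (0.757) and Mphosph6 (0.741). With the means of females taken away the values were 0.65, 0.83 and 0.56 for the genes of Aurka. For those of Aurkc they were 0.57, 0.68 and 0.50.

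For the other subunits and the partners of Aurora A the closest genes had an r of 0.757 to 0.816. They were Pdk1, Prdm16 and Snx4 for Incenp, Creb3l4, Pcmt1 and Snrpa1 for Cdca8, Tax1bp1, Naa35 and Copb1 for Tpx2, and Paf1, Glcci1 and Polr2b for Tacc3. With the means of females taken away their r ran from 0.45 for Creb3l4 to 0.86 for Paf1. No member was among the 3 closest genes of another.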

How the data were processed

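Per the labels' protocols, RNA of single oocytes was amplified by SMART-Seq v4 and made into ThruPLEX libraries. GRCm39 (mm39) is the named build and HISAT2, Trim Galore and FastQC the named tools, per the submitters' processing notes; neither the counting tool nor its strand setting is given in the sources used here. The authors deposited log2 values, described as RPKM; they hold log2 RPM with no division by length, and the column minimum, 0.9 reads, stands for a count of 0. Distances from this minimum gave back whole reads (100% of 256342 values under 2000 reads within 0.02 of a whole read). Coordinates were read as GRCm38, since 99.8% of 25035 gene IDs shared with GENCODE M21 overlap the gene there. Of 22 labelled oocytes 21 were analysed; the water-only library and transgenic oocyte A of lane 1 were not analysed here.

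Oocytes of a female were averaged in log2(RPM + 1), which understates the change of low genes, and 4 and 4 females were compared with limma 3.58.1 (eBayes with trend, two-sided, Benjamini-Hochberg over 10987 genes, threshold 0.05) in R 4.3.3; the scripts were tested on simulated data. Means and SDs in RPM are over female means. Members, lists and tests were chosen with earlier results of these data known. Named genes are the members, the 2 partners of each role with the smallest p and the 3 genes with the highest r to each member, without Gm, Rik and -ps symbols; others are said to be named after their values were seen. Alternatives were the pseudocount, the filter, scaling, voom, oocytes taken singly, the lane as a block and each female left out.

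By the labels every lane pairs 1 transgenic with 1 wild-type female. The deviations of the paired females had an r of -0.040 in lane 1, 0.084 in lane 2, 0.34 in lane 3 and 0.32 in lane 4, and unpaired females a median r of -0.055.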

Additional observations from a re-analysis of the deposited data

Results flagged for a closer look

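Of the 16 groups of 4 females (8 transcripts in each genotype), 2 had a female far from the other 3, both the wild-type female of lane 4; chance flags about 1 in 20 such groups. Aurkb stood at 45.5 RPM in that female, and the next highest wild-type female was at 6.00 RPM, a gap of 0.937 of the group's range, above Dixon's critical value for 4 values. On the log2(RPM + 1) scale of the tests this gap was 0.784 of the range, below that critical value. Cdca8 stood at 589 RPM in that female, and the next lowest was at 714 RPM, a gap of 0.832 of the range, or 0.847 on the log2(RPM + 1) scale.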

How the results depend on the processing

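Over 19 alternatives, 120 of 133 values of the 7 tested members kept the sign of their genotype difference and stayed short of the threshold, and 13 values changed sign, also short of it. Aurkc was 0.022 with median-of-ratios scaling, and Cdca8 was -0.0044 with oocytes taken singly, -0.0051 with quantile normalization and -0.056 without lane 4, an alternative chosen after seeing the data. With each female left out in turn Aurkb ran from -0.25 to 0.95, Aurkc from -0.093 to 0.057, Cdca8 from -0.077 to 0.055 and Tacc3 from -0.22 to 0.047. Limma called 12 genes over the whole table with oocytes taken singly (random effect of female, lane as replicate block), and 0 to 1 with each female left out. The lane as a block on female means called 0 genes and changed no other call; the smallest adjusted p was then 0.447. The partners' median was 0.059 with median-of-ratios scaling, 0.072 without lane 4, and 0.0060 to 0.058 with each female left out; their count of calls was 0 throughout. The lane test, added after the data were seen, called 0 genes with a pseudocount of 0.1, without the filter, with median-of-ratios scaling, with voom and without lane 4, and 0 to 184 with each female left out, where the adjusted p of Aurkb ran from 0.0015 to 0.47. Where no value shows the cause, the cause was not tested. Aurkb had as few as 22 reads in an oocyte, and the part of counting error in its spread was not tested.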
